A study of Mus musculus with 7 samples.

Results

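The genes described here are 10 genes of the blood vessel lining, Notch4, Pecam1, Cdh5, Kdr, Flt1, Tek, Tie1, Emcn, Eng and Cldn5, out of 32285 genes counted in mouse utricle explants. They were taken by name, to ask whether the level of Notch4 moved with other vessel genes or further than they did. The set was selected on an earlier reading of the same comparison, and Notch4 for its rise in it. The fold changes of the members are therefore given as a description and not as evidence. Utricles, the organs of the inner ear that sense linear acceleration, were taken from wild-type mice (WT in the labels) at postnatal day 2, cultured without serum as whole organs and collected at day 5 after injury. All of them received 2 mM gentamicin for 24 h, an antibiotic that kills hair cells, so there was no undamaged group. In the Gent+Fos OE group (4 libraries) the explants also received AAV-PHP.eB Fos, a virus that carried mouse Fos, for 48 h, and the Gent group (3 libraries) had gentamicin alone by its labels. The study's methods place Fos under the CMV promoter, which is active in many cell types, so expression was not limited to the sensory epithelium by the vector. Each library was a pool of 12 utricles. The labels call the libraries biological replicates, and whether the Gent explants received a virus without Fos was not settled by the labels.

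Endothelial cells line blood and lymphatic vessels. They hold together through vascular endothelial cadherin and claudins, grow in answer to vascular endothelial growth factors (VEGFs) read by receptor tyrosine kinases, and are kept quiescent by angiopoietins acting on the Tie receptors. Notch4 is the Notch receptor best known from endothelium, where Notch signaling with the ligand Dll4 restrains sprouting and supports arterial identity. An explant in a dish has no blood flow, and vessels that enter with the dissected tissue are cut from the circulation.

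Library totals ran from 27879889 to 34335214 reads counted on genes (median 31313523). Levels are given as CPM, reads scaled to library size by the TMM method. Fos, the gene delivered, averaged 38.2 ± 3.18 CPM (SD, n = 3) in Gent and 154 ± 8.46 CPM (SD, n = 4) with the virus, and the groups did not overlap. Gent replicate 2 stood apart from the others. Its longer genes were low relative to the mean of all libraries (Spearman's rho with gene length, taken over genes that are not independent, -0.496), whereas the other 6 libraries ranged from -0.221 to 0.325. For the fold changes of all tested genes rho with length was 0.378. Values without this library or with each library's length trend removed stand beside many of the genes.

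Promoter sequence was read for the 8 members found in the RefSeq promoter table of GRCm38.p6 (mm10), from 250 bases before to 50 bases after each annotated start, on both strands. Pecam1 and Cdh5 are named only. Because Fos protein binds DNA as part of AP-1, the first motif searched was the AP-1 heptamer TGANTCA. It was in 7.81% of 32851 promoters and in 1 of the 8 members, Notch4, where it covers bases -4 to 3 around the start. The motif AGGAAGT, bound by ETS factors that are widely used in endothelial genes, was in 9.35% of promoters and in 2 of the 8 members, Flt1 and Eng, in both at bases -53 to -47. The motif TGGGAA, bound by the Notch effector RBPJ, was in 25.6% of promoters and in 2 of the 8, Kdr and Tie1. An eight-base element, TGACGTCA, which differs from the AP-1 heptamer and is bound by CREB and ATF proteins, was added once the Flt1 sequence had been read. It was in 1.79% of promoters and lies at bases -81 to -74 of Flt1. The windows of Notch4, which held the AP-1 motif, of Flt1, which had the largest fold change of the set, and of Eng, which shares the ETS motif with Flt1 but had a negative fold change, are shown 5′ to 3′ on the gene's strand with the matched letters in capitals. The Notch4 window is chr17:34564280-34564308 (+), within the first exon of the annotation used for counting, the Flt1 window is chr5:147726047-147726103 (-), and the Eng window is chr2:32646531-32646559 (+), where the ETS motif is on the opposite strand.
Notch4: aggacattgtgTGACTCAggaaacagctc
Flt1: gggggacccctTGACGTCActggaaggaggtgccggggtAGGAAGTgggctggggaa
Eng: aagcctgtggcACTTCCTctactcgcctg
A match is a description of the letters, and binding was not measured in these files.

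The genes of the set differed widely in level, and several that define endothelium were near 0 while others were abundant. Emcn, the sialomucin endomucin of venous and capillary endothelium, and Eng, the TGF-beta co-receptor endoglin, ranked 1 and 2 of 50 endothelial genes (the 10 and a list of 40 others) when levels were set per length, at 20.9 and 20.1 CPM per kb over the 7 libraries. Cdh5 followed at rank 8 with 2.90 CPM per kb, Kdr at rank 10 with 2.45, Tek at rank 14 with 1.27 and Notch4 at rank 19 with 0.79. Pecam1 (0.16 CPM per kb, rank 30), Cldn5 (0.15, rank 31), Flt1 (0.11, rank 35) and Tie1 (0.079, rank 37) lay far below. Between neighbours in this order the ranges of mean ± SD overlapped in both groups for Emcn and Eng, for Cdh5 and Kdr, and along Pecam1, Cldn5, Flt1 and Tie1. For Tek and Notch4 they overlapped in Gent+Fos OE and not in Gent, and for Eng and Cdh5, Kdr and Tek, and Notch4 and Pecam1 they overlapped in neither.

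**Figure D1:**
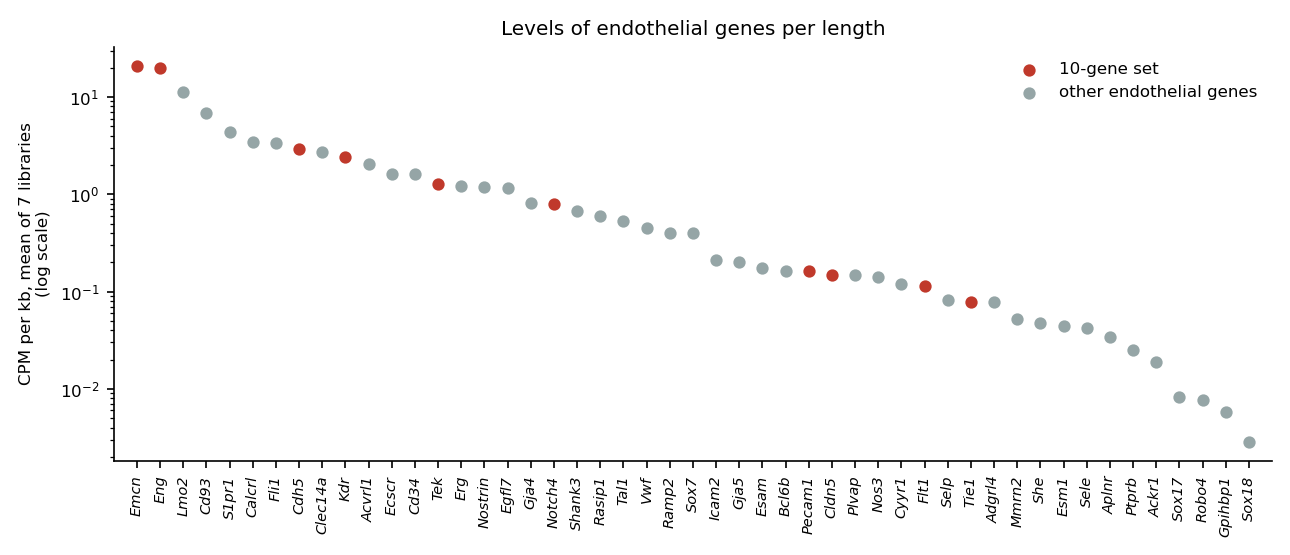
Level of 49 endothelial genes in CPM per kb of gene length (mean of 7 libraries, log scale), ordered from high to low, with the 10-gene set in red and the other endothelial genes in grey (Myct1, with no count, is not drawn). The set spans the range from Emcn at 20.9 to Tie1 at 0.079, with Notch4 at 0.79.

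Of the 40 other endothelial genes, 19 had a mean under 1 CPM. Myct1 had no count in any library, and Sox18, Gpihbp1, Robo4, Sox17 and Ackr1, all found in endothelium, had means under the level of 3 counts in a library (0.0874 to 0.108 CPM). The more abundant list members included Lmo2 and Cd93, which blood cells also express. The label "endothelial" therefore names where these genes are known from, and the files do not show which cells of the explant carried each transcript. In bulk RNA, fewer cells of a type and less RNA per cell cannot be told apart.

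Notch4 (ENSMUSG00000015468), the receptor, lies on chromosome 17 of mm10 from 34564268 to 34588503 on the plus strand, with 8061 exonic bases. It had 6.58, 8.70, 8.45 and 7.31 CPM in Gent+Fos OE replicates 1 to 4, from 202, 284, 267 and 205 reads, and 4.45, 5.00 and 4.16 CPM in Gent replicates 1 to 3, from 130, 156 and 144 reads. Every Gent+Fos OE library was above every Gent library. The mean was 7.76 ± 0.99 CPM (SD, n = 4) against 4.54 ± 0.43 CPM (SD, n = 3), a ratio from the fit of 1.71 and a log2 fold change of 0.77 (SE 0.18). With each library's length trend removed it was 0.56 (SE 0.21), and without Gent replicate 2 it was 0.85.

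Flt1, the VEGF receptor with weak kinase activity whose soluble form traps VEGF-A (chromosome 5, 147561604 to 147726011, minus strand, 13504 exonic bases), had the largest fold change of the set at a low level. Its values were 2.02, 2.02, 2.66 and 2.35 CPM in Gent+Fos OE replicates 1 to 4 (62, 66, 84 and 66 reads) and 0.82, 0.51 and 0.32 CPM in Gent replicates 1 to 3 (24, 16 and 11 reads). The groups did not overlap, and the ratio of the lowest Gent+Fos OE to the highest Gent value was larger than for any other member. The log2 fold change was 2.04 (SE 0.38), and 1.69 (SE 0.38) with the length trend removed and 1.997 without Gent replicate 2. Transcripts of the soluble and the membrane form are not separated in gene counts.

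Kdr, the main signaling receptor for VEGF-A (chromosome 5, 75932827 to 75978458, minus strand), had 22.2, 24.7, 25.2 and 17.9 CPM in Gent+Fos OE and 25.6, 12.1 and 26.9 CPM in Gent. All 4 Gent+Fos OE values lay inside the range of Gent, whose replicate 2 was lowest of all 7 libraries. The log2 fold change was 0.07 (SE 0.25), and it turned to -0.22 without Gent replicate 2 and to -0.13 with the length trend removed. The pair of VEGF receptor genes thus had values that overlapped for Kdr and did not for Flt1.

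Cdh5, vascular endothelial cadherin of the adherens junction (chromosome 8, 104101625 to 104144511, plus strand), was the other member whose groups did not overlap. It had 14.3, 11.1, 15.2 and 18.5 CPM in Gent+Fos OE replicates 1 to 4 and 10.7, 7.88 and 7.45 CPM in Gent replicates 1 to 3. The gap was narrow, between Gent+Fos OE replicate 2 and Gent replicate 1. The log2 fold change of Cdh5 was 0.77 (SE 0.21), as large as that of Notch4, and 0.76 (SE 0.20) with the length trend removed and 0.70 without Gent replicate 2.

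Pecam1, the adhesion molecule CD31 at endothelial contacts (chromosome 11, 106654217 to 106750628, minus strand), was scarce, with 11 to 44 reads in a library. It had 1.24, 0.34, 0.73 and 1.43 CPM in Gent+Fos OE and 1.51, 1.09 and 0.78 CPM in Gent, with a log2 fold change of -0.27 (SE 0.50). The groups overlapped widely, and without Gent+Fos OE replicate 2, the lowest library, the value was 0.0066. Cldn5, the tight junction claudin of endothelium (chromosome 16, 18776847 to 18778262), had 15, 2, 12 and 2 reads in Gent+Fos OE and 6, 8 and 0 in Gent. It was the 1 member that did not pass the filter on low counts and has no fold change. Emcn (chromosome 3, 137341067 to 137432185) had 96.2, 88.2, 129 and 100.2 CPM in Gent+Fos OE and 102, 176 and 100.05 CPM in Gent. Its log2 fold change was -0.29 (SE 0.21), and it was 0.025 without Gent replicate 2, the highest library.

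Tek, the receptor for angiopoietins (chromosome 4, 94739289 to 94874976, plus strand), had 7.46, 4.29, 4.53 and 7.16 CPM in Gent+Fos OE and 6.78, 6.38 and 5.37 CPM in Gent. The 3 Gent values fell between the lower and the higher pair of Gent+Fos OE libraries, and the log2 fold change was -0.08 (SE 0.24), or 0.045 without Gent+Fos OE replicate 2 and 0.027 without replicate 3. Tie1, the orphan partner of Tek, lies on chromosome 4 from 118471191 to 118490061. It had 16, 10, 2 and 32 reads in Gent+Fos OE and 0, 16 and 6 in Gent, and its log2 fold change of 1.11 carried an SE of 0.99. That value was 0.56 when Gent replicate 1 was left out and 2.41 when Gent replicate 2 was. Eng (chromosome 2, 32646595 to 32682669) had 82.2, 51.6, 71.8 and 74.9 CPM in Gent+Fos OE and 82.8, 141 and 65.5 CPM in Gent. Its log2 fold change was -0.46 (SE 0.24), and without Gent replicate 2, which was the highest library by far, it was -0.09. Another gene overlaps 1.51% of the exonic bases of Eng.

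**Figure D2:**
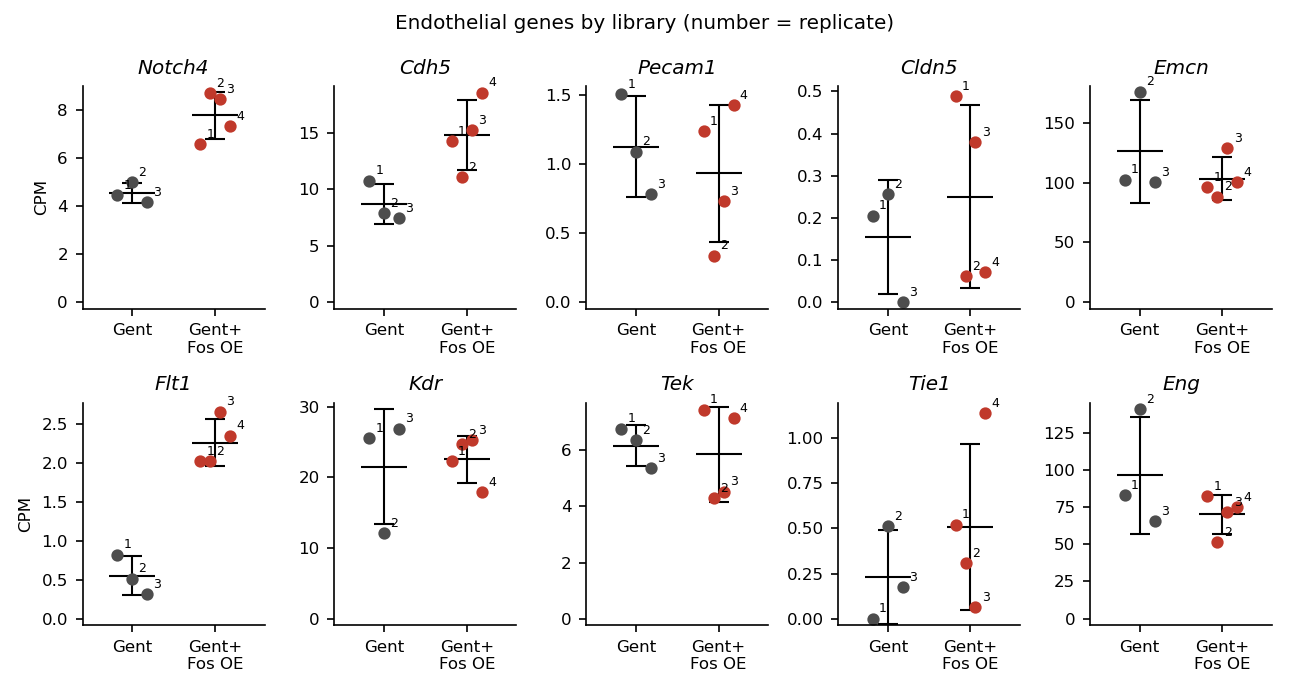
CPM of each of the 10 genes in every library, with Gent in grey and Gent+Fos OE in red, the replicate number beside each point, and the group mean with SD as bars. Each panel has its own linear axis. The groups are apart for Notch4, Cdh5 and Flt1 and overlap for the other 7 genes.

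In all, 9 of the 10 genes were tested, 5 with a positive and 4 with a negative log2 fold change (median 0.07, against -0.0007 over all 17155 tested genes). A gene was called at an adjusted p under 0.01 with an absolute log2 fold change over 0.25. With edgeR (quasi-likelihood test, Benjamini-Hochberg adjustment) none of the 9 was called (0.414% of all tested genes were), while 3 had an unadjusted p under 0.05, as did 24.5% of all tested genes. DESeq2 called 2, Notch4 (adjusted p = 0.00361) and Flt1 (adjusted p = 2.45e-05), where it called 3.9% of its 15678 genes. The groups did not overlap for 3 members, all higher in Gent+Fos OE, and over all tested genes this held for 11.3% in that direction and 12.2% in the other. Since the members were taken with this contrast known, no weight is put on these counts.

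Set against the other members library by library, Notch4 moved about as far as Cdh5, less far than Flt1, and further than Tek, Emcn and Eng. The difference in log2 CPM between Notch4 and Cdh5 was -0.91 ± 0.42 (SD, n = 4) in Gent+Fos OE and -0.91 ± 0.31 (SD, n = 3) in Gent, a shift of 0.0049. Against Flt1 the shift was -1.23, from 2.98 ± 0.57 in Gent to 1.75 ± 0.22 in Gent+Fos OE, with no overlap. Against Eng it was 1.16, against Emcn 1.01 and against Tek 0.87, each with all 4 Gent+Fos OE libraries above all 3 Gent libraries. In Gent replicates 1 to 3 the difference was -4.20, -4.80 and -3.96 for Eng and -4.51, -5.12 and -4.57 for Emcn. The shifts against Eng and Emcn thus rest partly on Gent replicate 2. How often other pairs of genes were apart in this way was not counted. The shifts against Pecam1 (1.14), Kdr (0.62), Cldn5 (0.24) and Tie1 (-0.29) came with overlapping groups.

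**Figure D3:**
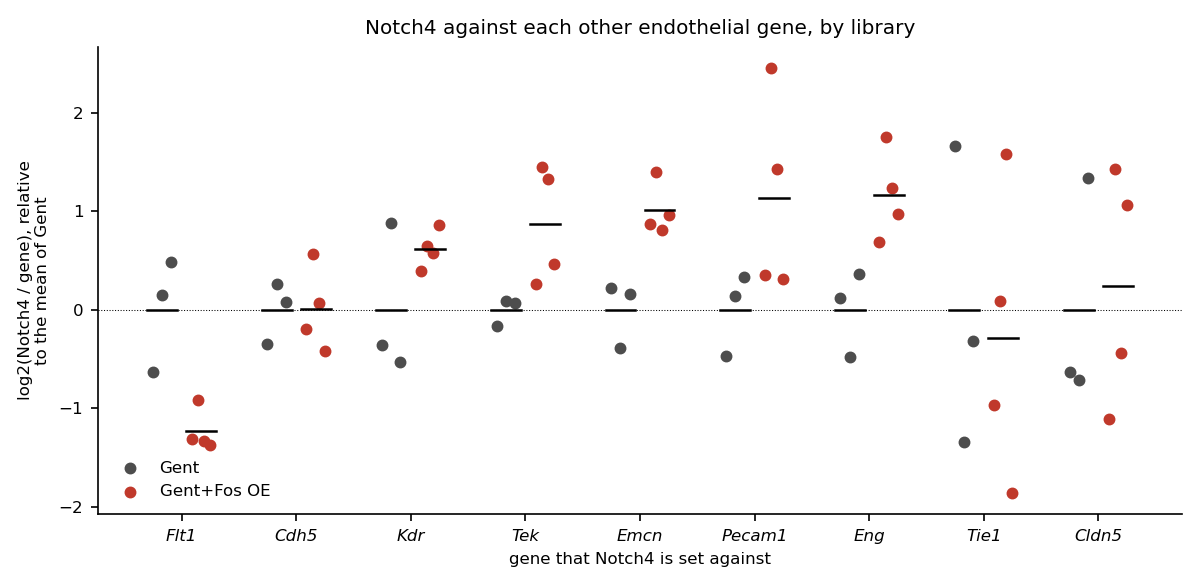
Difference in log2 CPM between Notch4 and each of the other 9 genes in every library, relative to the mean of the Gent libraries (dotted line), with Gent in grey, Gent+Fos OE in red and group means as bars. Notch4 kept its distance to Cdh5 (shift 0.0049), lost ground to Flt1 (-1.23) and gained on Tek, Emcn and Eng (0.87 to 1.16).

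Against the mean of all 9 other members the answer was less clear. Notch4 minus that mean was 0.07, 1.17, 0.76 and 0.29 in Gent+Fos OE replicates 1 to 4 and 0.11, 0.02 and 0.40 in Gent replicates 1 to 3. The groups overlapped, and the shift of 0.39 was smaller than the SD of 0.49 within Gent+Fos OE and was 0.20 without Gent+Fos OE replicate 2. With the barely detected Tie1 and Cldn5 left out, a choice made after the values were seen, the shift was 0.51. The difference was then -0.93, -0.03, -0.49 and -0.83 in Gent+Fos OE and -1.31, -0.99 and -0.94 in Gent, so the groups were narrowly apart.

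Within Gent+Fos OE, Notch4 and the other members did not peak in the same libraries. Replicate 2 had the most Notch4, and it was the lowest of the 4 for 6 of the 9 other members (Pecam1, Cdh5, Tek, Emcn, Eng and Cldn5) and the highest for none. Replicate 1 had the least Notch4 and was highest for 3 (Tek, Eng and Cldn5). In Gent the orders were closer, since replicate 3 was lowest for Notch4 and for 7 of the 9 others, and replicate 2 was highest for Notch4 and for 4 others (Tie1, Emcn, Eng and Cldn5). Kdr had the opposite order there, highest in replicate 3 and lowest in replicate 2. These orders rest on 4 and 3 libraries and are given as a description. Some of them turn on few reads. Notch4 had 284 and 267 reads in Gent+Fos OE replicates 2 and 3, and 202 and 205 in replicates 1 and 4. Cldn5 had 2 reads in replicate 2 and 2 in replicate 4.

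The wider endothelial list, written with earlier results of these data known, had more negative than positive values. Of its 40 genes 29 were tested, 10 with a positive and 19 with a negative log2 fold change, and the median was -0.30, or -0.16 without Gent replicate 1. By edgeR none was called, and DESeq2 called 1, Ecscr (0.414% and 3.9% of all tested genes). At an unadjusted p under 0.05 were 0 genes higher and 4 lower, where 11.1% of all tested genes were higher and 13.4% lower, so the share of lower genes was near that of all genes. Ecscr, an endothelial surface protein of cell migration, had 1.53, 1.16, 1.11 and 1.75 CPM in Gent+Fos OE and 3.76, 6.44 and 4.30 CPM in Gent, a log2 fold change of -1.80 (SE 0.28, edgeR adjusted p = 0.0124, DESeq2 adjusted p = 1.23e-06). All 4 Gent+Fos OE libraries were below all 3 Gent libraries, and with the length trend removed edgeR called it too, at -1.62 (adjusted p = 0.00762). Among the list genes with at least 1 CPM, the next lowest fold change was that of Cd34, a sialomucin of endothelial and progenitor cells, at -0.71 (SE 0.35, edgeR adjusted p = 0.231). The highest were those of Gja4, the arterial gap junction gene connexin 37, at 0.43 (SE 0.42, edgeR adjusted p = 0.546), and of Shank3, a scaffold gene also known from synapses, at 0.34 (SE 0.23, edgeR adjusted p = 0.379), or 0.11 with the length trend removed.

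Ordered by log2 fold change, the 29 endothelial genes that averaged 1 CPM or more, members included, ran from Flt1 at rank 1, Notch4 at rank 2 and Cdh5 at rank 3 to Ecscr at rank 29. Flt1 reached a mean of 1 CPM only through Gent+Fos OE (2.26 CPM, against 0.55 in Gent), so the limit helped to set its rank. Notch4 and Cdh5 lay within 1 SE of each other, and both lay within the wide SE of Gja4 at rank 4. Without Gent replicate 2 the value of Gja4 was 1.12 (SE 0.39), above that of Notch4. The log2 fold change of Notch4 was 1.07 above the median of the other endothelial list. Since Notch4 was chosen for its rise in these libraries, its rank and this distance are a description only.

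**Figure D4:**
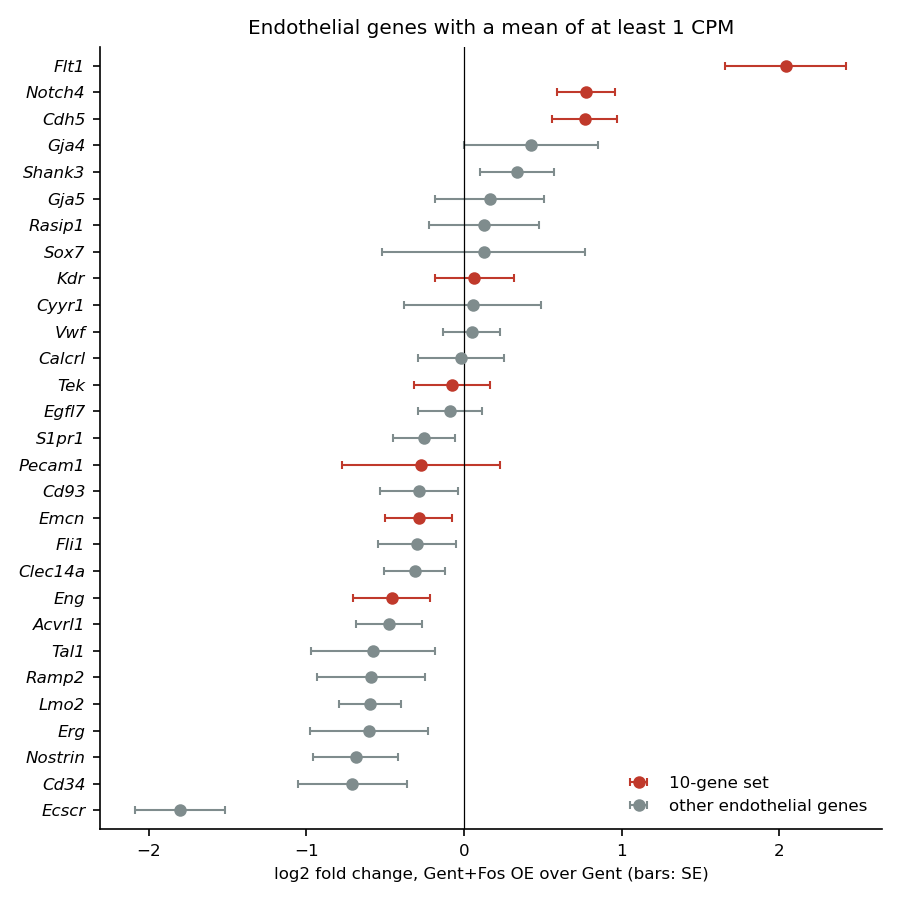
Log2 fold change (Gent+Fos OE over Gent, edgeR, bars SE) of the 29 endothelial genes that averaged 1 CPM or more, with the 10-gene set in red and the other endothelial genes in grey. Flt1, Notch4 and Cdh5 lie at the top and Ecscr, at -1.80, at the bottom.

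Genes of vessel subtypes and their neighbours were read from lists made the same way. Of 13 tested arterial and tip cell genes 7 had a positive log2 fold change (median 0.11), and none was called by edgeR or DESeq2, which called 0.414% and 3.9% of all tested genes. At an unadjusted edgeR p under 0.05 was 1 gene, Jag1, where 11.1% of all tested genes were higher. Jag1, a Notch ligand that the supporting cells of the inner ear also use, had a log2 fold change of 0.63 (SE 0.19, edgeR adjusted p = 0.109), and 0.41 without Gent replicate 2. The lowest values were those of the arterial repressor Hey2, at -0.16 (SE 0.16), and the chemokine receptor Cxcr4, at -0.13 (SE 0.19). Without Gent replicate 2 these were -0.28 and -0.32, and with the length trend removed that of Cxcr4 was -0.0091. Dll4, the endothelial Notch ligand, was near 1 CPM in both groups, at 0.73 to 1.19 CPM in Gent+Fos OE and 0.68 to 0.99 CPM in Gent. The 3 tested venous genes had a median of -0.12 and the 5 tested lymphatic genes one of -0.0009, with none called by either tool and 1 gene of each list at an unadjusted edgeR p under 0.05, against 24.5% of all tested genes. These were the venous regulator Nr2f2, with a log2 fold change of 0.37 (SE 0.14, edgeR adjusted p = 0.162), and Pdpn, podoplanin of lymphatic endothelium and some epithelia, with -0.35 (SE 0.13, edgeR adjusted p = 0.151). With the length trend removed they were 0.16 and -0.19, and without Gent replicate 2 Nr2f2 had 0.24. The lymphatic regulator Prox1, also known from supporting cells, had 0.62 (SE 0.30, edgeR adjusted p = 0.227), and 0.27 without Gent replicate 2. For the adhesion gene Vcam1 the value was -0.37 (SE 0.21), and -0.61 without Gent replicate 2. Ephb4, the venous ephrin receptor, had -0.12 (SE 0.12). Reln, the matrix protein reelin, had 0.26 (SE 0.55), with a negative value (-0.19) without Gent replicate 2, and Flt4, the lymphatic VEGF receptor, had -0.0009 (SE 0.27), or -0.20 with the length trend removed.

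Among 12 tested genes for ligands that act on vessels, 4 had a positive and 8 a negative log2 fold change (median -0.07), with none called by edgeR and 2 by DESeq2 (0.414% and 3.9% of all tested genes). Those 2 were Sema3e, a semaphorin that repels endothelial tip cells, at 0.75 (SE 0.15, DESeq2 adjusted p = 0.000239, edgeR adjusted p = 0.038), and Angptl4, an inhibitor of lipoprotein lipase, at -1.16 (SE 0.27, DESeq2 adjusted p = 0.00278, edgeR adjusted p = 0.0571). Sema3e had 221 to 261 CPM in Gent+Fos OE and 113 to 161 CPM in Gent, with no overlap. Its log2 fold change was 0.52 with the length trend removed and 0.60 without Gent replicate 2. Vegfa, the ligand of Flt1 and Kdr, had 74.5 to 83.8 CPM in Gent+Fos OE and 64.3 to 73.9 CPM in Gent, a log2 fold change of 0.18 (SE 0.12, edgeR adjusted p = 0.342), or 0.12 without Gent replicate 2. Vegfd had the largest positive value of the list, 0.85 (SE 0.31, edgeR adjusted p = 0.149), with overlapping groups. Vegfb, a ligand of Flt1, had -0.41 (SE 0.21, edgeR adjusted p = 0.252), and -0.075 without Gent replicate 2, its highest library.

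Mural cells, the pericytes and smooth muscle around vessels, were read through 14 tested genes, 7 with a positive and 7 with a negative log2 fold change (median 0.15). None was called by edgeR and 4 by DESeq2 (0.414% and 3.9% of all tested genes), 3 of them lower and 1 higher in Gent+Fos OE. Ndufa4l2, a hypoxia-regulated gene of pericytes, had the lowest value, -2.44 (SE 0.55, DESeq2 adjusted p = 0.000396, edgeR adjusted p = 0.0516), from 0.55 to 1.71 CPM in Gent+Fos OE and 1.65 to 9.07 CPM in Gent, and the groups overlapped. Its value was -1.75 without Gent replicate 2, its highest library. Cnn1 and Acta2, contractile genes of smooth muscle and myofibroblasts, were lower in Gent+Fos OE without overlap, with log2 fold changes of -2.13 (SE 0.36, DESeq2 adjusted p = 1.08e-06) and -1.35 (SE 0.25, DESeq2 adjusted p = 1.83e-05). Notch3, the Notch receptor of mural cells that epithelia also express, was higher, at 0.89 (SE 0.16, DESeq2 adjusted p = 3.55e-05). Abcc9, a potassium channel subunit of pericytes, had 0.69 (SE 0.26, edgeR adjusted p = 0.151) and 0.50 without Gent replicate 2.

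Markers of macrophages were read from a list of 14 genes, all tested, of which edgeR called 1 and DESeq2 7, against 0.414% and 3.9% of all genes. Of the 14, 13 had a negative log2 fold change (median -0.69), and their summed level ran from 3214 to 4999 CPM in Gent+Fos OE and from 5319 to 7483 CPM in Gent, with no defining marker at 0. The groups did not overlap for 10 of the 14, all lower in Gent+Fos OE, which held for 12.2% of all tested genes. Cd14, the co-receptor for lipopolysaccharide, was called by edgeR, with a log2 fold change of -1.15 (SE 0.17, edgeR adjusted p = 0.00847). Fcer1g, an Fc receptor subunit, had -1.03 (SE 0.23, edgeR adjusted p = 0.0547, DESeq2 call), and the mannose receptor gene Mrc1 had 0.052 (SE 0.27), or -0.27 without Gent replicate 2. Cd14 and Fcer1g had -0.945 and -0.74 without that library, and -0.98 and -0.94 with the length trend removed. The count of 10 genes without overlap includes that library. The summed level of the 40 other endothelial genes was 148 to 181 CPM in Gent+Fos OE and 179 to 255 CPM in Gent. Of the 12 tested mesenchyme genes none was called by edgeR or DESeq2, and the median was -0.12. At an unadjusted edgeR p under 0.05 were 0 higher and 2 lower, where 11.1% of all tested genes were higher and 13.4% lower. The lowest mesenchyme values were those of Lum and Dcn, small proteoglycans of connective tissue, at -0.70 (SE 0.25) and -0.56 (SE 0.20). The highest were those of Pdgfra at 0.31 (SE 0.24), or 0.032 without Gent replicate 2, and the collagen gene Col3a1 at 0.27 (SE 0.17), or 0.011 with the length trend removed. Of 7 erythroid genes only 1 passed the filter, and the summed level of the list reached at most 1.11 CPM in a library. The part of macrophage RNA in the lower endothelial values was not tested.

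Within the Notch family, Notch4 was the least abundant receptor. It had a mean of 0.96 CPM per kb in Gent+Fos OE and 0.56 in Gent, while Notch1 had 14.1 and 7.44, Notch2 had 13.04 and 10.4, and Notch3 had 12.6 and 6.82. Notch1, at 0.92 (SE 0.22), and Notch3 also had positive log2 fold changes and no overlap between the groups. Of the 32 tested Notch pathway genes 8 had no overlap, 5 higher and 3 lower in Gent+Fos OE, where 11.3% and 12.2% of all tested genes did. With the length trend removed the values of Notch1 and Notch3 were 0.55 and 0.69, and without Gent replicate 2 they were 0.71 and 0.83. Notch2 had 0.32 (SE 0.26) with overlapping groups, and 0.020 without Gent replicate 2. Of 32 tested Notch pathway genes 18 had a positive and 14 a negative log2 fold change (median 0.07), with none called by edgeR and 2 by DESeq2 (0.414% and 3.9% of all tested genes), which were Notch1 and Notch3. The lowest values at 1 CPM or more were those of Psenen and Psen2, both parts of gamma-secretase, at -0.59 (SE 0.23) and -0.41 (SE 0.13), or -0.20 and -0.30 without Gent replicate 2. Of the 6 Notch target genes in the lists, Hes1, Hey1, Hey2, Heyl and Nrarp were tested and had log2 fold changes of 0.041, -0.0030, -0.16, -0.054 and 0.095, none called, with SEs of 0.14 to 0.27. Another gene overlaps 79.4% of the exonic bases of Nrarp. Hes5 was too scarce to test, with 4, 4, 4 and 0 reads in Gent+Fos OE and 14, 5 and 5 in Gent.

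Over all 14837 genes compared for likeness, the 5 genes whose log2 CPM profile across the 7 libraries was closest to that of Notch4, each profile taken relative to its own mean, were Hmga2, Clca3a2, Isl2, Gpat3 and Agbl2. Their root mean square differences were 0.077, 0.080, 0.114, 0.117 and 0.124 on the log2 scale. Cdh5 was the most alike of the vessel genes in the set, at rank 1291 (0.324), while Flt1 was at rank 13358 (0.698) and Pecam1 at rank 14399 (0.902). Notch3 was at rank 351 (0.262). The 5 genes have log2 fold changes of 0.67 to 0.73 and share the libraries and their depth with Notch4, so the likeness includes the group difference.

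Within 100 kb of Notch4 on chromosome 17 the files count 15 other genes. Tnxb, a matrix protein of the tenascin family, had 7.65, 10.04, 8.11 and 11.7 CPM in Gent+Fos OE and 6.06, 5.03 and 3.87 CPM in Gent, a log2 fold change of 0.91 (SE 0.22, edgeR adjusted p = 0.0656, DESeq2 adjusted p = 0.00418), with no overlap. Tnxb is long, at 13488 exonic bases, and with the length trend removed its value was 0.53 (SE 0.24). The gene next to Notch4, Gpsm3, a regulator of G protein signaling in blood cells, went the other way, at -0.60 (SE 0.18, edgeR adjusted p = 0.109) with no overlap, and 16.9% of its exonic bases overlap another gene. The thioesterase gene Ppt2 had -0.41 (SE 0.15, edgeR adjusted p = 0.149) and -0.27 without Gent replicate 2, and the other tested genes of the stretch lay between -0.32 and -0.06, and between -0.14 and 0.28 without Gent replicate 2. Btnl4 and Btnl6 had no count in any library.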

How the data were processed

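RNA of pooled utricle explants was sequenced in 7 libraries. The authors deposited whole read counts per gene, not normalized, made by featureCounts 2.0.6 on an mm10 annotation per the file headers, with the 2 reads of a pair counted separately, no strand, and multi-mapping reads left out. The submitters' processing notes also list Trim Galore 0.6.10 and HISAT2 2.2.1, and the methods name mm39, which differs. The labels give 4 and 3 libraries where the methods state 3 replicates, so all were used. Letters in the names of the deposited Gent counts also stand for shRNA, so every fold change rests on the labels.

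Symbols were given to 24493 of 32285 genes whose Ensembl ID and place carry 1 name in GENCODE vM39 and RefSeq GRCm38.p6. Counts were filtered by filterByExpr (17155 genes), scaled by TMM and compared by edgeR 4.0.16's quasi-likelihood test (R 4.3.3) with no covariate, Benjamini-Hochberg adjustment, and limits of 0.01 on adjusted p and 0.25 on absolute log2 fold change. CPM per kb divides by the files' gene length. Differences between genes within a library used a prior count of 2. The alternatives were DESeq2 1.42.0 (at least 10 counts in total), limma 3.58.1 voom, other scalings and filters, a length correction (loess span 0.3), a replicate block, and leaving out each library. The code was tested on simulated data. Figures were drawn in Python 3.11.15 with matplotlib 3.10.9.

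The 10 genes and all gene lists were chosen with earlier results of these data known. Genes named from a list are its called genes and, at 1 CPM or more, the 2 largest rises and falls, with the genes within 100 kb of Notch4 and the 5 nearest its profile. Lmo2, Cd93, Dll4, Vegfa, Acta2, Hes1, Hes5, Hey1, Heyl, Nrarp and the scarce genes were named after their values were seen.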

Additional observations from a re-analysis of the deposited data

Results flagged for a closer look

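In groups of 4 libraries, a value was marked when its gap to the nearest other library, divided by the range of the group, was above Dixon's critical value. Of 60 measures examined in Gent+Fos OE 4 were marked, where chance alone marks about 5%, and none of them was a member of the 10-gene set or a difference between Notch4 and other members. Fos was 166.98 CPM in Gent+Fos OE replicate 3, above 148.83 to 151.14 CPM in the other 3 libraries. Cd34, of the wider endothelial list, was 16.99 CPM in replicate 2, the library with the most Notch4, against 5.95 to 7.81 CPM in the other 3. The macrophage mannose receptor gene Mrc1 was 115.74 CPM in replicate 4, against 83.21 to 88.11 CPM. Agpat1, within 100 kb of Notch4, was 62.78 CPM in replicate 3, against 66.99 to 67.82 CPM.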

How the results depend on the processing

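Under 16 alternative fits Notch4, Flt1, Cdh5, Tie1 (13 fits) and Eng kept the sign of their log2 fold change. The number of the 10 genes called was 0 with edgeR and 2 with DESeq2, and 1 (Flt1) with no filter on low counts. DESeq2 gave Notch4 a log2 fold change of 0.78 with a call, and over all alternatives its adjusted p ran from 0.00361 to 0.195. With single libraries left out, 0 of the 10 were called each time, the log2 fold change of Notch4 was 0.71 to 0.85, its shift against the mean of the other 9 members 0.20 (without Gent+Fos OE replicate 2) to 0.56, its distance to the median of the other endothelial genes 0.91 to 1.22, and that median -0.37 (without Gent replicate 2) to -0.16 (without Gent replicate 1). The sign turned for Kdr (-0.22, without Gent replicate 2, to 0.26), Pecam1 (-0.55 to 0.0066, without Gent+Fos OE replicate 2), Tek (-0.22 to 0.045, positive without Gent+Fos OE replicate 2 or 3) and Emcn (-0.43 to 0.025, without Gent replicate 2), and Kdr was also negative with the length trend removed (-0.13) and with that and the replicate block (-0.010). The cause was not tested. Replicate numbers do not pair the libraries (correlations of same-numbered deviations 0.0643, -0.038 and 0.0317), and with the replicate block Notch4 had 0.80 (edgeR adjusted p = 0.16). Over all genes the number called was 71 in the edgeR fit, 611 with DESeq2, 204 with no filter, 130 with the length trend removed, 0 with the replicate block and 5 to 138 with single libraries left out. Depth limits Pecam1, Tie1, Cldn5 and Flt1, which rest on under 100 reads in a library.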
